A study of Mus musculus with 11 samples.

Results

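The genes described here are 9 of the 21899 mouse genes with a row in the expression file: Tg, Tshr, Pax8, Slc5a5, Iyd, Dio1, Foxe1, Pth and Gcm2. They were chosen by symbol because an earlier reading of the same values had shown thyroid and parathyroid transcripts in some airway libraries. Their levels are therefore given as a description, and no test of them is used as support.

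The thyroid builds its hormones on thyroglobulin, the product of Tg, inside follicles whose cells take up iodide through the symporter Slc5a5 under the control of thyrotropin and its receptor Tshr. Pax8 and Foxe1 are transcription factors of the follicular cell. Iyd recovers iodide from iodinated tyrosines, and Dio1 converts thyroxine to its active form in thyroid, liver and kidney. Parathyroid glands lie on or in the thyroid and secrete parathyroid hormone, the product of Pth, and the transcription factor Gcm2 is needed for their formation. Neither organ belongs to the airway, but in the mouse both lie beside the trachea.

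Male BALB/c mice aged 6 to 8 weeks, wild type by the labels, gave 11 airway libraries in 3 groups. The PBS group (libraries PBS 1, 2 and 3) was not sensitised and received PBS only. The OVA/LPS/Vehicle group (libraries OL 12, 34, 56 and 78) received ovalbumin with alum on days 0 and 7, intranasal ovalbumin on days 14 to 17, 50 ng of intranasal LPS on days 19 and 21, and vehicle into the trachea on days 21 to 23. The OVA/LPS/GGsTop group (libraries OLG 1, 2, 3 and 4) received the same ovalbumin and LPS and, in place of vehicle, 0.5 mg/kg of GGsTop, an inhibitor of γ-glutamyl transferases. Tissue was taken on day 25 by pulling the larger airways free of the lung. The methods describe airway without trachea, whereas the labels name trachea. Whether the paired digits of the OVA/LPS/Vehicle names stand for pooled mice is not said, and no source used here ties a library to a separate animal, so each p-value below measures only the spread between libraries, which may be technical.

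Values are FPKM, fragments scaled for the length of a gene's exons and for the size of the library, so levels can be compared between genes per length. The libraries held 14513136 to 18632382 fragments, with PBS 3 the deepest. Scgb1a1, the secretory protein of club cells, lay between 26145 and 47905 FPKM, so a defining marker of the airway was abundant in all 11 libraries. In whole tissue, fewer cells of a kind and less RNA per cell cannot be told apart.

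Promoters of Pax8, Slc5a5 and Pth are shown because, of the members with a promoter sequence, these had their 3 highest values in OL 12, 34 and 56. RefSeq on GRCm38.p6 gave the 250 bases before the start of 6 of the 9 members, these 3 with Dio1, Iyd and Gcm2. The sequences run 5′ to 3′ on the strand of the gene, which is the minus strand for all 3, at chr2:24475600-24475849 (Pax8), chr8:70892758-70893007 (Slc5a5) and chr7:113388574-113388823 (Pth). Capitals mark the motifs found, CCAAT or TATAAA.
Pax8: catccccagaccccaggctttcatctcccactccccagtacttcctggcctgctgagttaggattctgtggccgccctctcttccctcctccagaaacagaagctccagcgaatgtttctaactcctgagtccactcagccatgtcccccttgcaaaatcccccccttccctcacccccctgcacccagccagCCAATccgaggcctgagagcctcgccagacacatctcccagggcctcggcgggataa
Slc5a5: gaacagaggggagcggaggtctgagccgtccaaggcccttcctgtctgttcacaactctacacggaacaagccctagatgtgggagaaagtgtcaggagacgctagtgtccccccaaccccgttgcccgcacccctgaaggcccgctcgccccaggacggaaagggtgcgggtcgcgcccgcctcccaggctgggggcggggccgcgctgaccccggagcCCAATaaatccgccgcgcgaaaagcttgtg
Pth: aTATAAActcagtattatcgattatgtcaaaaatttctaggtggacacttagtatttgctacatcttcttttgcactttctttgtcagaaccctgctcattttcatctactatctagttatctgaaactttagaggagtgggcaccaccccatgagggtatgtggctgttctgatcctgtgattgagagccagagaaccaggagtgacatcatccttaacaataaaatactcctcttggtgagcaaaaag

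The short motifs were searched on both strands, and a match is a description of letters only. CCAAT, the box bound by NF-Y, began 57 bases before the start of Pax8, 30 before Slc5a5 and 168 before Iyd, and 33.8% of all 32851 promoters of this length held it. TATAAA, the TATA box, began 29 bases before the start of Iyd and 249 before Pth, against 12.4% of all promoters. CTCAAG, the core bound by the thyroid and lung factor NKX2-1, was in 0 of the 6 windows and in 13.3% of all promoters. ATGCGGGT, the GCM box, was also in 0 of the 6 windows and in 0.207% of all promoters.

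Thyroglobulin RNA was found at high level in 3 libraries, all of the OVA/LPS/Vehicle group. Tg (ENSMUSG00000053469, chromosome 15, 66670753 to 66850721 on GRCm38, plus strand) was at 90.6 FPKM in OL 12, 166 in OL 34 and 302.5 in OL 56. In the remaining library of that group, OL 78, it was at 0.256 FPKM. The PBS libraries held 0.553, 0.305 and 0.828 FPKM, and the OVA/LPS/GGsTop libraries 1.44, 0.147, 0.1998 and 0.251. OL 78 thus lay among the OVA/LPS/GGsTop libraries and just under the PBS libraries, and the lowest of the 3 high libraries stood 62.8-fold above the highest of the remaining 8.

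The 3 high values rested on 12479, 23342 and 42842 fragments, so counting error was small beside the differences among them. In OL 56 the exact Poisson 95% interval was 300 to 305 FPKM, which, like every such interval here, covers counting error only. Tg ranked 80 by FPKM among all genes listed in OL 56, 167 in OL 34 and 386 in OL 12, and between 12156 and 15394 in the other libraries. It took 0.0839% of all FPKM in OL 56. Sla, an adaptor protein of lymphocytes whose gene lies within Tg on the opposite strand, was between 2.99 and 6.56 FPKM in all 11 libraries and did not follow Tg. Whether the counting used strand is not given in the sources used here.

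Parathyroid hormone RNA followed the same libraries with wider steps between them. Pth (ENSMUSG00000059077, chromosome 7, 113385580 to 113388570, minus strand) was at 5.997 FPKM in OL 12, 91.8 in OL 34 and 223.5 in OL 56, on 66, 1030 and 2530 fragments. It had 0 fragments in OL 78, PBS 1, PBS 2 and OLG 2, 3 and 4, which allows at most 0.291 FPKM in any of them. PBS 3 held 2 fragments and OLG 1 held 5, at 0.151 and 0.468 FPKM. The 3 libraries with thyroglobulin were therefore also the 3 highest in parathyroid hormone, and OLG 1, the highest of the other 8 for Tg, was the highest of them for Pth as well.

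**Figure D1:**
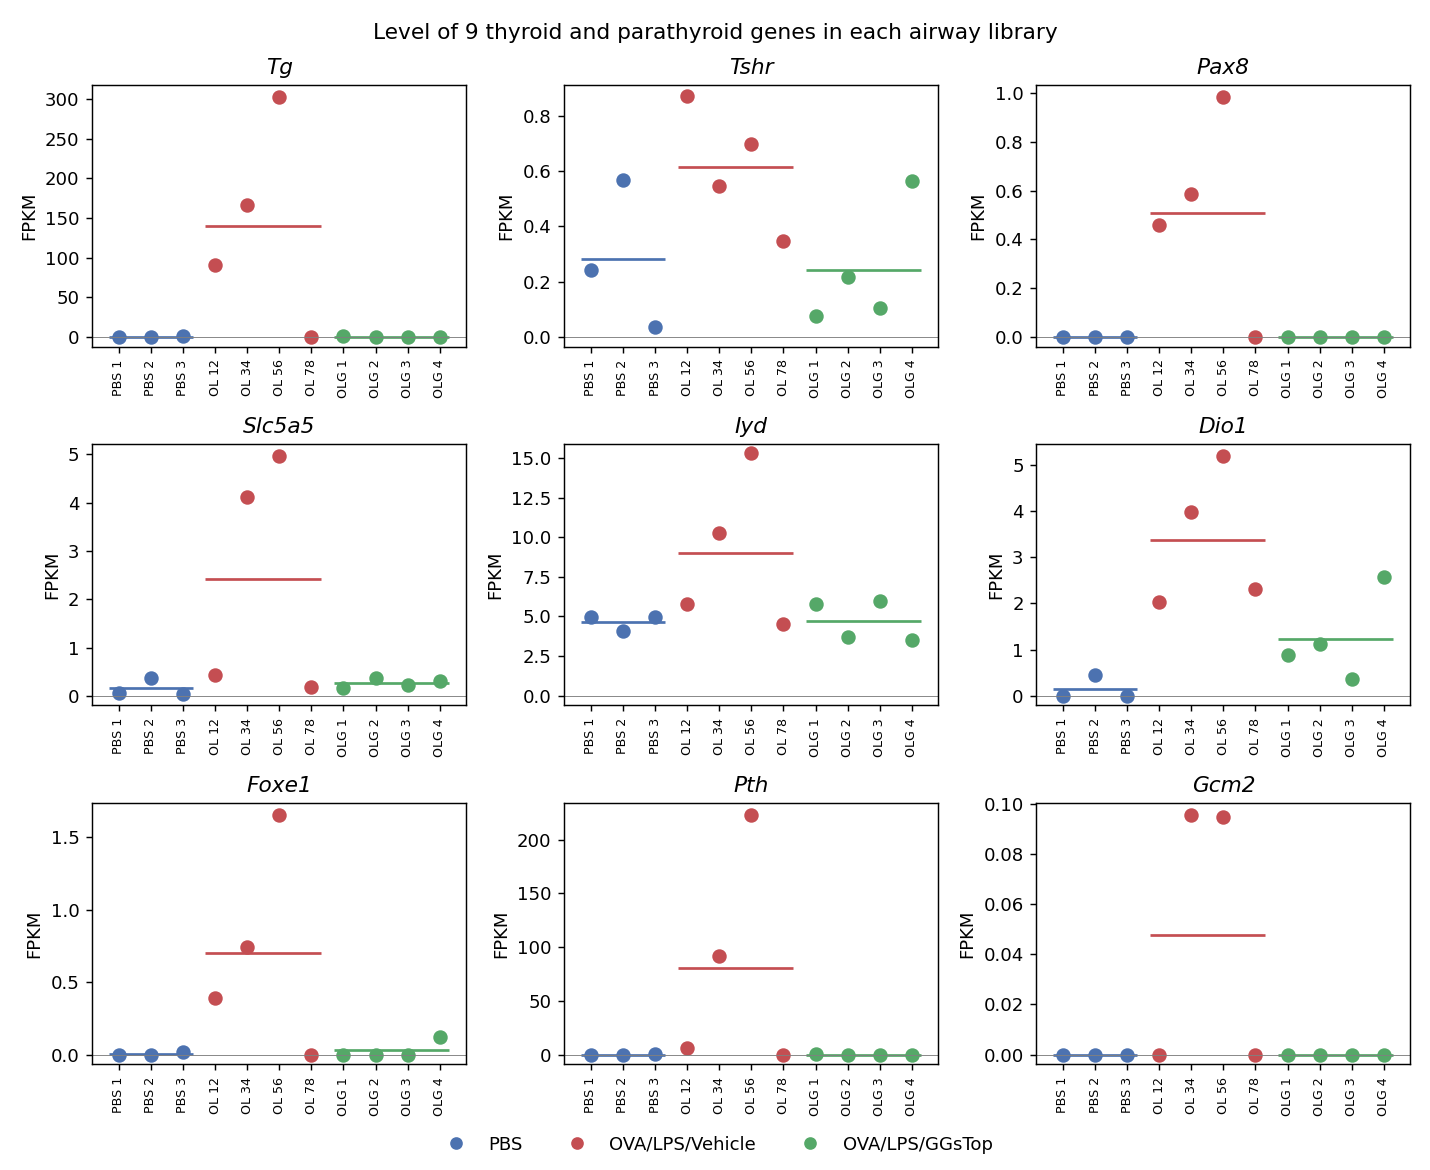
FPKM of the 9 genes in each of the 11 libraries, 1 panel per gene with its own linear axis; points are libraries, coloured by group, and horizontal lines are group means. Tg, Pax8, Slc5a5, Foxe1 and Pth have their 3 highest values in OL 12, 34 and 56, whereas OL 78 lies with the other 2 groups for these genes. For Slc5a5, OL 12 could not be set apart from PBS 2 and OLG 2 by counting.

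The transcription factors of the follicular cell were low but followed the same libraries. Pax8 (ENSMUSG00000026976, chromosome 2, 24420560 to 24475599, minus strand) had 43, 56 and 95 fragments in OL 12, 34 and 56, or 0.458, 0.5845 and 0.983 FPKM. It had 0 fragments in each of the remaining 8 libraries, where 0 allows at most 0.0341 FPKM, and the lowest of the 3 was 13.4 times that limit. This ratio leaves out the counting error of the 43 fragments in OL 12, whose interval was 0.331 to 0.617 FPKM. Foxe1 (ENSMUSG00000070990, chromosome 4, 46343609 to 46346412, plus strand) was at 0.391, 0.745 and 1.66 FPKM in the same 3 libraries, on 17, 33 and 74 fragments. Outside them Foxe1 had 5 fragments in OLG 4, 1 in PBS 3 and 0 in the other libraries. Each gene overlaps a noncoding gene on the opposite strand, Gm13415 at Pax8 and Gm12446 at Foxe1.

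Slc5a5, the iodide symporter (ENSMUSG00000000792, chromosome 8, 70882889 to 70892757, minus strand), separated the 3 libraries further. It was at 4.11 FPKM in OL 34 and 4.97 in OL 56 but at 0.441 in OL 12, close to the 0.375 of PBS 2 and the 0.377 of OLG 2. The remaining libraries held 0.0367 to 0.300 FPKM. The interval of the 20 fragments in OL 12, 0.269 to 0.681 FPKM, includes the values of PBS 2 and OLG 2, so OL 12 could not be set apart from them at this depth.

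Iyd (ENSMUSG00000019762, chromosome 10, 3540240 to 3554877, plus strand) was detected in every library. Its level was 10.3 FPKM in OL 34 and 15.3 in OL 56, and between 3.54 and 5.98 FPKM in the other 9 libraries, OL 12 included at 5.80. The level outside OL 34 and OL 56 was 4.68 ± 0.509 FPKM in PBS (SD, n = 3) and 4.74 ± 1.31 in OVA/LPS/GGsTop (SD, n = 4). Unlike Tg and Pth, Iyd thus had a steady level in libraries with almost no thyroglobulin.

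Dio1, the deiodinase (ENSMUSG00000034785, chromosome 4, 107291465 to 107307169, minus strand), was the only member whose OVA/LPS/Vehicle libraries all lay above PBS. It was at 2.03, 3.98, 5.19 and 2.31 FPKM in OL 12, 34, 56 and 78. PBS 1 and PBS 3 had 0 fragments and PBS 2 had 0.458 FPKM, and the OVA/LPS/GGsTop libraries held 0.876, 1.12, 0.354 and 2.57 FPKM. OLG 4 lay above OL 12 and OL 78, so these 2 groups overlapped.

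Tshr and Gcm2 did not single out the 3 libraries. Tshr (ENSMUSG00000020963, chromosome 12, 91384563 to 91549808, plus strand) was at 0.869, 0.547, 0.699 and 0.348 FPKM in OL 12, 34, 56 and 78, at 0.243, 0.569 and 0.0357 in PBS 1 to 3 and at 0.0773, 0.218, 0.105 and 0.562 in OLG 1 to 4. PBS 2 and OLG 4 were both above OL 34, so the groups overlapped. Gcm2 (ENSMUSG00000021362, chromosome 13, 41101427 to 41111035, minus strand) had 5 fragments in OL 34, 5 in OL 56 and 0 in the other 9 libraries. The interval of the 5 fragments in OL 34, 0.0311 to 0.223 FPKM, includes the 0.0626 FPKM that a count of 0 allows in the shallowest library, so OL 34 taken alone could not be set apart from it by counting. All 10 fragments of Gcm2 came from OL 34 and OL 56.

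Over the members, OL 56 was the highest library for 7 of 9, against 10.2% of the 14004 genes whose mean reached 0.5 FPKM. The 3 highest libraries were OL 12, 34 and 56 for 5 of 9 (Tg, Pax8, Slc5a5, Foxe1 and Pth), against 3.54% of those genes. These 5 also shared the order OL 56, OL 34, OL 12. The members were picked for this pattern, so the shares describe the choice and are not evidence beyond it.

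Groups were compared over all genes by limma on log2(FPKM + 1), with a call at a Benjamini-Hochberg adjusted p under 0.05. The minimum mean of 0.5 FPKM was passed by 5 of the 9 members, Tg, Slc5a5, Iyd, Dio1 and Pth, some of them only through the group where they are high. OVA/LPS/Vehicle against PBS called 3 of these 5 (Tg, Dio1 and Pth), all higher, beside 38% of all genes tested (15.9% higher and 22.1% lower). These were 2231 higher and 3096 lower genes, and 1232 higher and 4570 lower with the libraries rescaled to the same total. OVA/LPS/GGsTop against OVA/LPS/Vehicle called 1 of 5 (Tg, lower), beside 8.71% (6.9% higher and 1.81% lower). OVA/LPS/GGsTop against PBS called 0 of 5, beside 2.88% (2.06% higher and 0.821% lower). Since these contrasts chose the members, the choice set these counts, and nothing is read from them. Without overlap between the libraries of both groups, OVA/LPS/Vehicle exceeded PBS for 1 of 9 members, Dio1, beside 18.7% of genes tested, and 25.4% were lower in the same way. No member was without overlap in OVA/LPS/GGsTop against OVA/LPS/Vehicle, beside 17.3% of genes higher and 12.4% lower, or in OVA/LPS/GGsTop against PBS, beside 7.22% higher and 7.54% lower.

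The differences in mean log2(FPKM + 1) between OVA/LPS/Vehicle and PBS were 4.99 for Tg, 4.22 for Pth, 1.89 for Dio1, 1.22 for Slc5a5, 0.69 for Iyd, 0.66 for Foxe1, 0.55 for Pax8, 0.34 for Tshr and 0.07 for Gcm2. From OVA/LPS/Vehicle to OVA/LPS/GGsTop the difference was -5.10 for Tg, -4.15 for Pth, -1.09 for Slc5a5 and -1.002 for Dio1. The 2 comparisons share the 4 OVA/LPS/Vehicle libraries, so they are not separate observations. The differences of Tg and Pth rest on OL 12, 34 and 56, and that of Iyd on OL 34 and OL 56. With OL 78 as the lone library of the group, the difference from PBS was -0.30 for Tg, -0.07 for Pth and -0.04 for Iyd, and that from OVA/LPS/Vehicle to OVA/LPS/GGsTop was 0.19 for Tg and 0.14 for Pth. For Dio1 the same values were 1.54 and -0.66. Both kept their sign but were smaller than with the full group, and they rest on OL 78 alone, which lay below OLG 4. Between OVA/LPS/GGsTop and PBS, Tg differed by -0.11 and Pth by 0.07, within the spread of the libraries.

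The members did not keep one ratio among the 3 libraries. From OL 12 to OL 56 the level differed 2.15-fold for Pax8, 3.34-fold for Tg and 4.23-fold for Foxe1, but 11.3-fold for Slc5a5 and 37.3-fold for Pth. The ratio of Slc5a5 is limited by its level in OL 12, which was close to that of PBS 2 and OLG 2. The ratio of Tg to Pth was 15.1 in OL 12, 1.81 in OL 34 and 1.35 in OL 56. Tg to Foxe1 stayed closer, at 232, 223 and 183, and Tg to Pax8 was 198, 284 and 308. Iyd and Dio1, which other libraries also held, differed 2.64-fold and 2.56-fold between OL 56 and OL 12, and Tshr was lower in OL 56, at 0.804 of its level in OL 12.

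**Figure D2:**
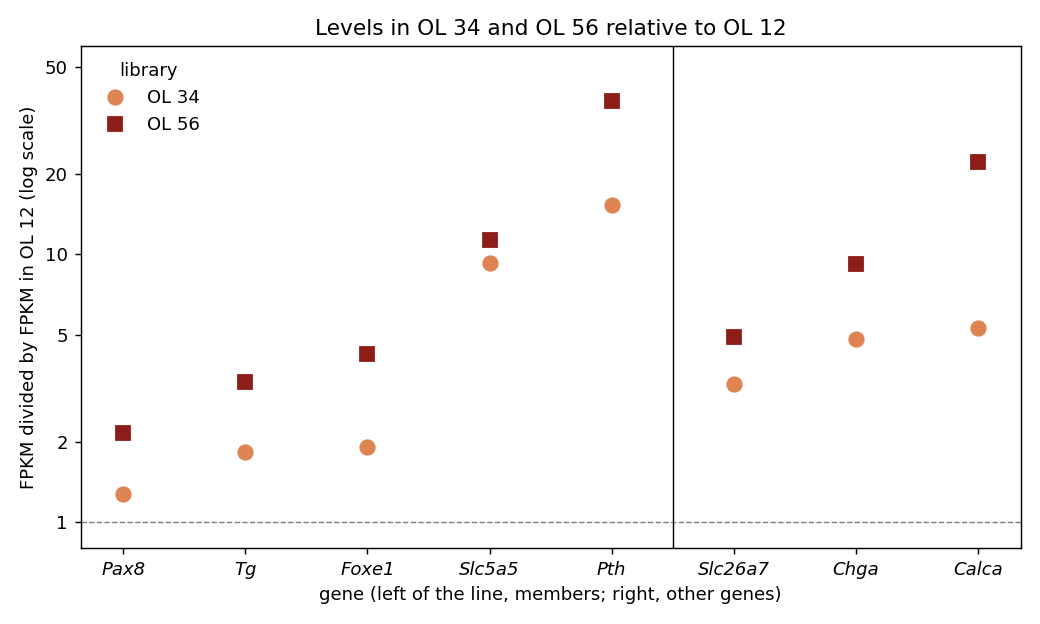
FPKM in OL 34 (circles) and OL 56 (squares) divided by the FPKM in OL 12, on a log axis, for 5 members (left) and 3 other genes of thyroid or parathyroid (right); the dashed line marks OL 12. The ratio in OL 56 spans 2.15 for Pax8 to 37.3 for Pth, so the genes do not scale together. For Slc5a5 and Calca the level in OL 12 was close to or within that of libraries with little Tg, which limits their ratios.

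Other genes of the thyroid follicle did not move as one. Slc26a7, an anion transporter of the follicular cell, was at 0.689, 2.26 and 3.38 FPKM in OL 12, 34 and 56 and at most 0.178 elsewhere. Nkx2-1, a transcription factor of both thyroid and lung and the most abundant gene of the list, was between 50.3 and 98.1 FPKM in every library and did not follow Tg, nor did Ano1, a chloride channel, at 7.07 to 18.7 FPKM.

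Of 14 further follicular genes listed, 10 were tested. Against PBS, OVA/LPS/Vehicle was higher in 2, Slc26a4 and Slc26a7, and lower in 1, Kcne2, a potassium channel subunit. Of all genes tested, 15.9% were called higher and 22.1% lower in that comparison. The list's median log2 difference was -0.33 beside -0.02 over all genes tested. Slc26a4, the anion exchanger pendrin, which airway epithelium also makes, rose by 2.06 ± 0.461 on the log2 scale (SE; limma's adjusted p = 0.00822) and was highest in OL 78, at 18.1 FPKM, so its pattern was not that of Tg. Slc26a7 passed the minimum mean only through OVA/LPS/Vehicle, the group where it was high, so its call is a description and no support. It rose by 1.07 ± 0.372 (adjusted p = 0.0415 by limma), and the call was lost without PBS 1 (0.0881), PBS 2 (0.0519), PBS 3 (0.129), OL 34 (0.101) or OL 56 (0.0914). It was also lost after GC correction, where the log2 difference was 0.48 (adjusted p = 0.371), with only the 2 groups fitted (0.0816) and with no minimum (0.0596). Kcne2 fell by 1.17 on the log2 scale (adjusted p = 0.0172 by limma), a call lost without PBS 1 (0.0599) or PBS 3 (0.0663). OVA/LPS/GGsTop was higher than OVA/LPS/Vehicle in Kcnq1, the channel partner of Kcne2, alone among these genes (0.51 ± 0.131, adjusted p = 0.0399), and each of the 8 fits without 1 library lost that call, with adjusted p from 0.0524 to 0.116. After GC correction Kcnq1 differed by 0.25 (adjusted p = 0.219), and the call was lost at the same median (0.0696) and with no minimum (0.0559) too.

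Among 5 genes of the calcitonin-producing C cell, Calca, which encodes calcitonin and also CGRP and is made by airway neuroendocrine cells and nerves too, was at 2.72, 14.4 and 60.1 FPKM in OL 12, 34 and 56 and at 0.923 to 2.91 FPKM elsewhere, a range that includes OL 12. Scg2, a protein of secretory granules, was at 4.26, 2.09 and 7.03 FPKM in the same libraries and at 0.149 to 0.548 elsewhere. OL 12 was above OL 34 for Scg2 and far below it for Calca. Because Scg2 passed the minimum mean only through OVA/LPS/Vehicle, where it was high, its calls below are a description and no support. Of the 4 genes tested, OVA/LPS/Vehicle was higher than PBS in Scg2 (log2 fold change 1.65 ± 0.438, adjusted p = 0.0151 by limma, 0.0546 without PBS 3) and lower in Calcb, another CGRP gene (-0.78 ± 0.160, adjusted p = 0.00632). The median log2 difference of these 4 was 0.76, beside -0.02 over all genes tested, of which 15.9% were called higher and 22.1% lower. Scg2 was lower in OVA/LPS/GGsTop than in OVA/LPS/Vehicle (-1.50 ± 0.405, adjusted p = 0.0446), a call that 7 of the 8 fits without 1 library lost, all but that without OL 78, with adjusted p up to 0.113. It was also lost after GC correction (0.0978), with no minimum (0.0644) and at the same median (0.0531). Ret, a receptor kinase of C cells, was highest in OL 12, at 5.44 FPKM, and between 1.28 and 2.995 elsewhere.

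Of 8 other parathyroid genes, 7 were tested, and OVA/LPS/Vehicle was higher than PBS in 2, Chga among them. The median log2 difference was 0.31 over the 7. It was -0.02 over all genes tested, of which 15.9% were called higher and 22.1% lower. The minimum mean was passed by Chga only through OVA/LPS/Vehicle, where it was high, so its call is a description and no support. Chga, chromogranin A of hormone granules, was at 2.27, 10.9 and 20.96 FPKM in OL 12, 34 and 56 and at most 0.760 elsewhere, and rose by 2.30 ± 0.763 (SE; adjusted p = 0.0351 by limma). That call was lost without PBS 1 (0.0828), PBS 3 (0.102), OL 34 (0.0875) or OL 56 (0.0752), with only the 2 groups fitted (0.0709) and with no minimum (0.0560). Casr, the calcium receptor of the parathyroid cell and named here after its values were seen, was at 0.201 FPKM in OL 34 and 0.279 in OL 56 and at most 0.0704 elsewhere, with OL 12 at 0.0274. Tbx1, a factor of the pharyngeal pouches, was at 5.47 to 14.6 FPKM over all libraries and did not follow Pth. It was at 5.87, 6.925 and 7.05 FPKM in OL 12, 34 and 56 and at 8.20 in OL 78. Tbx1 was higher in OVA/LPS/GGsTop than in OVA/LPS/Vehicle (0.64 ± 0.130, adjusted p = 0.0224) and than in PBS (0.82 ± 0.140, adjusted p = 0.0160). The first call was lost without OL 34, OL 56, OLG 1 or OLG 3 and the second without PBS 1, PBS 3 or OLG 1, with adjusted p up to 0.0889. After GC correction Tbx1 differed by 0.34 from OVA/LPS/Vehicle (adjusted p = 0.185), and with only the 2 groups fitted the call against PBS was lost (0.0841).

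The receptors, carriers and targets of the hormones did not follow Tg. Of 12 tested of the 14 listed, OVA/LPS/Vehicle was higher than PBS in 1, Klf9, a transcription factor that thyroid hormone and glucocorticoids induce (0.85 ± 0.174, adjusted p = 0.00625 by limma). The group was lower than PBS in 1, the receptor Thra (-0.77 ± 0.127, adjusted p = 0.00369). The median log2 difference of the 12 was 0.09, beside -0.02 over all genes tested, of which 15.9% were called higher and 22.1% lower. Klf9 in OL 78 was 43.4 FPKM, between the 29.98 of OL 12 and the 50.9 of OL 56. Hr, a corepressor of the thyroid hormone receptor, was higher in OVA/LPS/GGsTop than in OVA/LPS/Vehicle (0.60 ± 0.129, adjusted p = 0.0252), a call lost without OL 34, OL 56, OL 78, OLG 1 or OLG 2, with adjusted p up to 0.0870, and after GC correction, where Hr differed by 0.30 (adjusted p = 0.174). Klf9 was higher in OVA/LPS/GGsTop than in PBS (0.82 ± 0.174, adjusted p = 0.0333), a call lost without PBS 1, PBS 3, OLG 1, OLG 2 or OLG 4, with adjusted p up to 0.123, with only the 2 groups fitted (0.0855) and with no minimum (0.0534). With the replicate number as a block, 0 of the genes of these lists called between OVA/LPS/GGsTop and PBS kept an adjusted p under 0.05: Calcb, which fell by 0.77 on the log2 scale (adjusted p = 0.0302), was at 0.0505, Tbx1 at 0.0741 and Klf9 at 0.0551. That fit held only PBS 1, 2 and 3 and OLG 1, 2 and 3, so the block and the smaller set of libraries cannot be told apart. Each of these genes also lost the call with only the 2 groups fitted and no block. Calcb also lost this call without PBS 1 (0.0818), PBS 3 (0.110), OLG 1 (0.0823) or OLG 2 (0.0614), with only the 2 groups fitted (0.136) and with a pseudocount of 0.1 (0.0628). Thrsp, a lipogenic target of thyroid hormone, ranged from 4.34 to 194 FPKM.

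**Figure D3:**
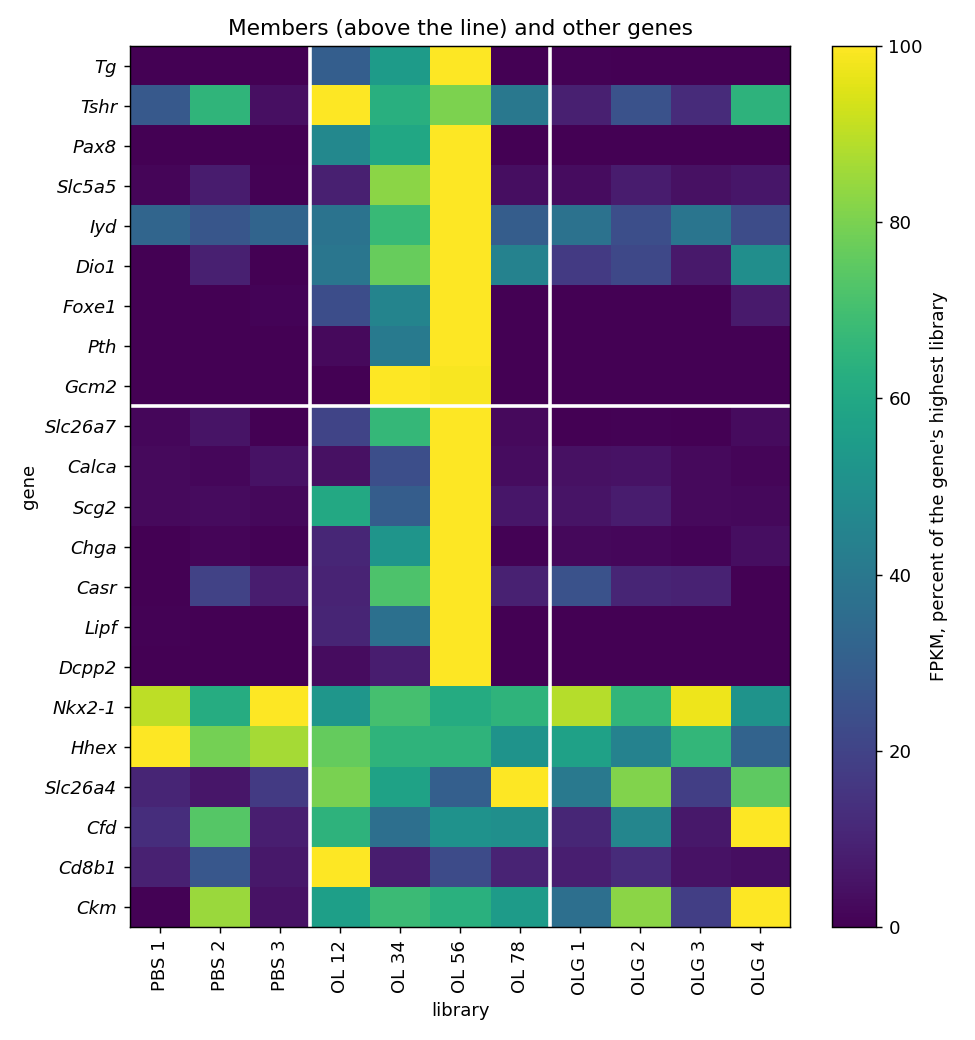
FPKM of each gene as a percent of its highest library, for the 9 members (above the horizontal line) and 13 other genes, with vertical lines between the 3 groups of libraries. Slc26a7, Calca, Chga, Lipf and Dcpp2 are bright in OL 56 and dark in OL 78, as Tg and Pth are, whereas Nkx2-1 and Hhex are spread over all libraries and Cd8b1 is bright in OL 12.

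The genes most like Tg and Pth over the 11 libraries, by Pearson's r of log2(FPKM + 1), included more than thyroid genes. For Tg the highest values were Lipf at 0.983, Dcpp2 at 0.951, Scg2 at 0.944, Slc26a7 at 0.937 and Chga at 0.936, and the next included Dmbt1, Wfdc18, Mrpl46 and Mnd1. Of all, 7 of 13999 genes compared were above 0.9. For Pth they included Slc26a7 at 0.991, Chga at 0.990, Dcpp2 at 0.972 and Lipf at 0.969, followed by Calca, Wfdc18, Dmbt1, Dcpp1 and Tomm20, with 9 genes above 0.9. All points come from the same 11 libraries, and OL 12, 34 and 56 hold the high values. Among the members themselves, r with Tg was 0.979 for Pax8, 0.954 for Pth and 0.924 for Foxe1, and 0.653 for Tshr.

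Lipf and the Dcpp genes belong to salivary and other seromucous glands. Lipf, the lingual and gastric lipase, was at 60.03, 219 and 590 FPKM in OL 12, 34 and 56, and at most 2.45 FPKM in the remaining libraries. Dcpp2, a protein of salivary glands, was at 10.7, 23.9 and 304 FPKM there and at most 0.245 elsewhere. Dcpp1 and Dcpp2 are close copies, and how fragments were divided between them is not known. Summed over the 8 gland genes with a row, the level was 84.0, 251 and 1031 FPKM in OL 12, 34 and 56, 5.45 in OL 78, 1.68 to 5.04 in PBS and 3.08 to 6.12 in OVA/LPS/GGsTop. Dcpp3, Prol1, Smr3a and Pip of that list were at 0 in all libraries. The ratio of Tg to Lipf was 1.51, 0.759 and 0.513 in the 3 libraries.

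The summed markers of other neighbouring tissues did not have the order that Tg had over the libraries. The 9 thymus genes summed to 56.9 FPKM in OL 12 but to 3.03 in OL 34, 6.77 in OL 56 and 3.79 in OL 78, with PBS at 2.13 to 7.06 and OVA/LPS/GGsTop at 2.09 to 4.46. Cd8b1 led that list at 21.1 FPKM in OL 12. The 8 skeletal muscle genes, with Ckm the most abundant, were highest in OL 34, at 149 FPKM, and ranged from 43.4 to 71.7 in the other OVA/LPS/Vehicle libraries, from 7.46 to 64.9 in PBS and from 18.3 to 86.8 in OVA/LPS/GGsTop. Within that list Myh4, the fast-fibre myosin named after its values were seen, was at 0.172, 1.63 and 0.845 FPKM in OL 12, 34 and 56 and at most 0.0178 elsewhere, so it was highest in the libraries that held Tg. Actn3, a protein of fast fibres named in the same way, was likewise highest in them, at 0.378, 5.13 and 0.497 FPKM against 0.0206 to 0.285 elsewhere. In OL 12 Actn3 had 17 fragments, beside 14 in PBS 3, too close to set OL 12 apart by counting. The 6 cardiac muscle genes, led by Myl7, were at 867.6 to 1410 FPKM in OVA/LPS/Vehicle, 92.6 to 1792 in PBS and 568 to 2418 in OVA/LPS/GGsTop. The 7 cartilage genes, led by Acan, were at 8.06 to 26.5 FPKM in OVA/LPS/Vehicle, 0.542 to 61.8 in PBS and 0.545 to 61.5 in OVA/LPS/GGsTop. The part of these tissues in the group differences was not tested.

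Liver, kidney, squamous and alveolar markers also overlapped between the groups or ran the other way. The 6 liver genes, led by Cyp2e1, summed to 19.4 to 39.6 FPKM in OVA/LPS/Vehicle, 5.003 to 30.5 in PBS and 4.29 to 36.1 in OVA/LPS/GGsTop. Cyp2e1 alone ranged from 3.73 to 39.3 FPKM, and no other gene of that list was above 0.275 FPKM in any library. The liver sum was therefore almost only Cyp2e1. The 6 kidney tubule genes, led by Lrp2, were at 2.92 to 3.77 FPKM in OVA/LPS/Vehicle, 3.54 to 5.96 in PBS and 3.82 to 4.98 in OVA/LPS/GGsTop. Apart from Lrp2 and Aqp2, no kidney gene listed was above 0.174 FPKM in any library. The 7 genes of oesophageal squamous epithelium, led by Krt14, were at 0.327 to 4.997 FPKM over all libraries, with Sprr3 and Crnn at 0 in all. The 7 alveolar genes, led by Sftpc, were at 5295 to 8728 FPKM in OVA/LPS/Vehicle, 10267 to 16331 in PBS and 4655 to 12018 in OVA/LPS/GGsTop. The 7 airway genes, led by Scgb1a1, were at 35597 to 54374, 31601 to 39212 and 42876 to 48942 FPKM in the same order.

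Tshr, which mouse fat cells also make, tracked the fat markers. The 7 fat genes, led by the adipocyte protease Cfd, summed to 687, 227, 362 and 300 FPKM in OL 12, 34, 56 and 78, to 120, 327 and 39.2 in PBS 1 to 3 and to 38.9, 231, 26.2 and 388 in OLG 1 to 4. Over the 11 libraries, r on log2 values with this sum was 0.905 for Tshr, 0.642 for Dio1, 0.429 for Tg and 0.058 for Iyd. Over the 8 libraries other than OL 12, 34 and 56, it was 0.896 for Tshr, 0.61 for Dio1, -0.56 for Tg and -0.89 for Iyd. These are descriptions over libraries that share groups and a preparation.

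**Figure D4:**
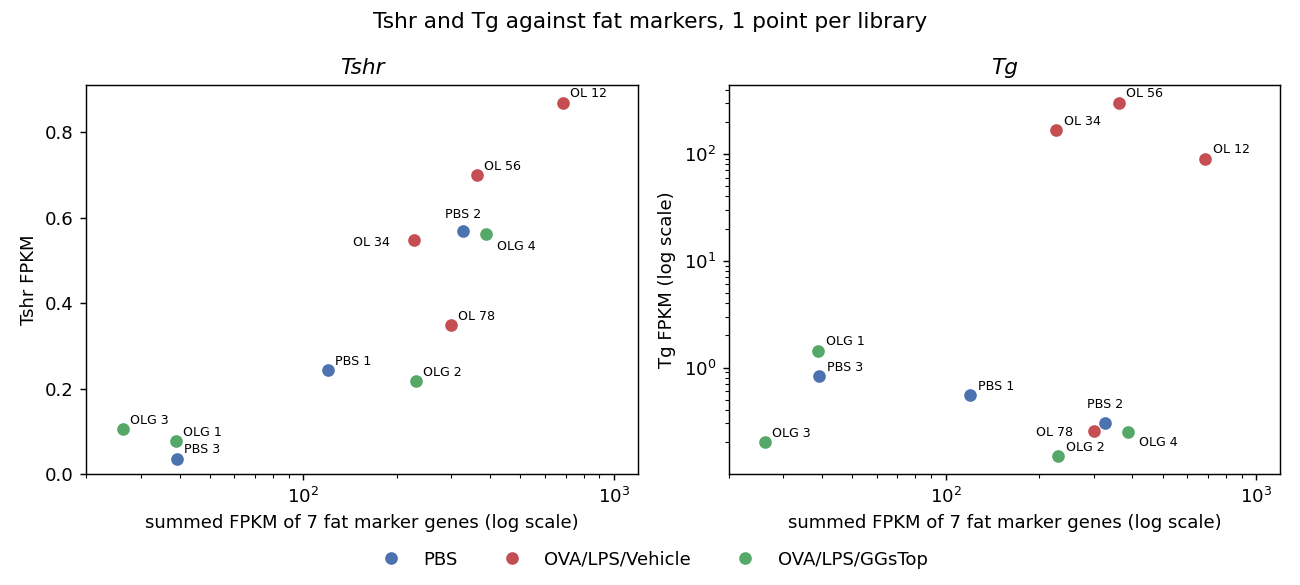
Level of Tshr (left, linear axis) and Tg (right, log axis) in FPKM against the summed FPKM of 7 fat marker genes (log axis), with 1 labelled point per library coloured by group. Tshr runs with the fat sum from OLG 3 at 26.2 to OL 12 at 687, whereas Tg sets OL 12, 34 and 56 apart from OL 78, PBS 2 and OLG 4, whose fat sums are 300, 327 and 388.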

How the data were processed

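The FPKM of 21899 genes in 11 libraries were deposited by the authors, with 1 column per library; poly(A) RNA was sequenced by a service company, and the submitters' processing notes name cutadapt 1.15, HISAT2 2.0.5, HTSeq 0.9.1 and mm39. The annotation is not given in the sources used here. Coordinates and exon lengths are those of GENCODE M21 on GRCm38, promoters those of RefSeq. FPKM times exon length gave whole fragments within 0.01 in every library for 21422 of 21846 genes with a length, and hence the fragments, 95% exact Poisson intervals and limits (3 fragments at 0) printed.

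Members and lists were chosen with earlier results of these data known. The 14004 genes whose mean reached 0.5 FPKM were fitted over all 11 libraries on log2(FPKM + 1), a pseudocount of 1 that understates changes of low genes, with limma 3.58.1 in R 4.3.3 and a mean-variance trend. P-values were two-sided, adjusted by the Benjamini-Hochberg method and called under 0.05. The study's own tests ran on counts, which the deposited FPKM are not. Named genes are the members, the called genes and the 3 most abundant of each thyroid, C cell, parathyroid and hormone list, the 10 genes most like Tg and Pth, and the most abundant gene of each tissue list. The results of some genes under this rule are not reported here. Casr, Myh4, Actn3, Dcpp3, Prol1, Smr3a, Pip, Sprr3, Crnn, Aqp2, Hhex and the genes that overlap members were named after their values were seen. Same-numbered PBS and OVA/LPS/GGsTop libraries deviated together from their group means (r = 0.367, 0.427 and 0.428 for numbers 1 to 3). Libraries of unlike number were not compared, so these r cannot show that the number matters. The fit with a replicate block, on PBS 1, 2 and 3 and OLG 1, 2 and 3 only, is given where it changes a call. Tables and figures used Python 3.11.15, pandas 2.3.3 and matplotlib 3.10.9.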

Additional observations from a re-analysis of the deposited data

Results flagged for a closer look

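Within the 4 OVA/LPS/GGsTop libraries, a single library stood apart from the rest for 3 members. Tg was at 1.44 FPKM in OLG 1, with the other 3 libraries at 0.147 to 0.251. Pth was at 0.468 FPKM in OLG 1, on 5 fragments, and had 0 fragments in the other 3. Foxe1 was at 0.120 FPKM in OLG 4, also on 5 fragments, with 0 in the other 3. For Pth and Foxe1 any count above 0 in 1 library alone would pass, and the counting intervals, 0.152 to 1.09 FPKM and 0.0391 to 0.281 FPKM, include the 0.291 and 0.0737 FPKM that 0 fragments allow in OLG 2. The gap to the nearest library was compared with Dixon's critical value for 4 libraries in 16 sets of a member and a group. Chance passes that value in about 1 of 20 sets only where values are normally spread. Low counts need not be so spread, and the sets share libraries, so the flags are a description and not a test.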

How the results depend on the processing

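The differences of the members between OVA/LPS/Vehicle and the other groups kept their sign under a pseudocount of 0.1, both rescalings and each library left out, but with OL 78 as the lone OVA/LPS/Vehicle library, chosen after seeing the data, those of Tg, Iyd, Foxe1 and Pth changed sign, as did that of Slc5a5 against OVA/LPS/GGsTop, and those of Pax8 and Gcm2 became 0. A pseudocount of 0.1 widened the differences of low members, to 4.19 for Dio1 against PBS. Between OVA/LPS/GGsTop and PBS, Tg, Tshr, Iyd, Foxe1 and Pth changed sign with some single library left out. With OL 78 alone the genes called were 4 against PBS and 0 against OVA/LPS/GGsTop (0 and 0 of the other thyroid and parathyroid genes), and the log2 difference of Chga turned to -0.0064. A lone library in a group leaves the fit less power, so these counts cannot be set beside those of the full groups. OVA/LPS/Vehicle against PBS called 5327 genes, 2904 after GC correction and 3064 (without PBS 3) to 6440 with a library left out. It called 7 of the 21 other thyroid and parathyroid genes tested, beside 38% of all genes tested. Among the 7 were Slc26a7, Scg2 and Chga, which passed the minimum mean only through OVA/LPS/Vehicle. The 7 became 11 after rescaling to the same total and 3 to 9 with a library left out. OVA/LPS/GGsTop against OVA/LPS/Vehicle called 1220 genes (966 higher and 254 lower), 56 after GC correction, 698 at the same median (344 higher and 354 lower), 2181 at the same total (2026 higher and 155 lower), 3525 with only these groups and 24 (without OLG 1) to 1052 with a library left out. Of the 21, it called 3 (beside 8.71% of all genes tested), or 0 after GC correction, 1 at the same median or with no minimum, 5 at the same total and 0 to 4 with a library left out. OVA/LPS/GGsTop against PBS called 403 genes (288 higher and 115 lower, or 250 and 243 at the same total), 208 with no minimum, 39 with only these groups, 62 with the replicate block and 29 (without PBS 1) to 1597 (without PBS 2) with a library left out. Of the 21, it called 2 (beside 2.88% of all genes tested), or 1 with a pseudocount of 0.1 or a minimum of 1 FPKM, 0 with only these groups, 0 with the replicate block and 0 to 5 with a library left out. Leaving out limma's trend moved none of these counts by over 1.5 times. The causes of these shifts were not tested. Depth limits Gcm2, Foxe1 and Pax8, which rested on at most 95 fragments in a library.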
